A study of Mus musculus with 50 samples.

Results

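The cytosolic ribosomal protein genes are described here in the thyroid of mice given Notch-blocking antibodies. They were found by symbol in the deposited count table of 52636 genes: every row whose Ensembl identifier maps to a mouse symbol of the Rpl or Rps series, the stalk genes included and pseudogenes left out. Of 88 matching genes, 56 had at least 100 counts in 1 or more of the 50 libraries and are the members; 32 stayed under that minimum in every library, and 1 of these, Rps12l1, was at 0 throughout. Just inside the minimum lay Rpl38, Rpl13 and Rps2, with at most 100, 110 and 112 counts, and just outside it lay Rpl7a, Rps4x and Rpl10, with at most 98, 90 and 70. Rpsa is not among the matched rows and is not analysed here.

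RNA was taken from the thyroid of male C57BL/6 mice, aged 10 to 12 weeks in the series design and up to 14 weeks in the sample protocol, each of which had received antibody by intraperitoneal injection on 1 occasion. RW is the isotype control, anti-ragweed, at 40 mg/kg. The aJ1aJ2 groups received antibodies to the Notch ligands Jag1 and Jag2 at 20 mg/kg each, the aN1aN2 groups antibodies to the receptors Notch1 and Notch2 at 5 and 10 mg/kg, and the aN1aN2aN3 group the same with an antibody to Notch3 at 20 mg/kg. RW, aJ1aJ2 and aN1aN2 were sampled at 15 hours and at 5 days. At 7 days the sample identifiers form 2 series: the first set holds RW and aJ1aJ2, and the second set holds aJ1aJ2 and aN1aN2aN3 and no RW. Each of the 10 groups had 5 libraries. The design also mentions daily thyroid hormone injections, and the labels do not tell the treated mice apart. The libraries come from bulk tissue, so fewer cells of a type and less RNA per cell cannot be told apart. The labels number the libraries within a group and say nothing about pooling; p-values measure the spread between these libraries.

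Ribosomes are built from ribosomal RNA and a fixed set of proteins, nearly all in equal numbers per particle, so their genes are usually expressed in step. The small subunit binds the messenger RNA and decodes it, the large subunit joins the amino acids, and a flexible stalk of acidic proteins on the large subunit recruits the elongation factors. Messenger RNAs of ribosomal proteins typically start with a pyrimidine-rich tract through which the mTOR pathway controls their translation. In the thyroid follicular cell, translation supplies large amounts of thyroglobulin, the precursor of thyroid hormone. Mammalian genomes hold very many processed pseudogenes of these genes, copies of the messenger RNA without introns, and this bears on how reads of 50 bases can be counted.

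To show how much sequence the members share with other genes, stretches of 50 coding bases, the length of a read, are printed for members with high and low levels. Each is taken from the middle of the coding sequence of the GENCODE M21 transcripts. Capitals mark the bases that differ from the closest copy in another gene, and a run in capitals throughout has no copy within 4 mismatches. Rpl8 (chromosome 15, plus strand, coding bases 361 to 410) stood alone.
Rpl8: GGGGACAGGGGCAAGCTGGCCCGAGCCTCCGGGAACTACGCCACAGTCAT
Rps3: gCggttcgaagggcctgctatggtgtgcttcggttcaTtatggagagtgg
The Rps3 stretch (chromosome 7, minus strand) had no exact copy and 1 copy within 4 mismatches, in Gm8130. By contrast, the following stretches stood letter for letter in other genes: that of Rpl7 in 1 gene, Rps28 in 5, Rpl5 in 4, Rps25 in 5, Rpl35 in 3 and Rps6, which did not reach the count minimum, in 1. Their genes lie on chromosomes 1, 17, 5, 9, 2 and 4, in that order.
Rpl7: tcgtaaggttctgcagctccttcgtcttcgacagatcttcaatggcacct
Rps28: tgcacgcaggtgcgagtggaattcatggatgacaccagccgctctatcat
Rpl5: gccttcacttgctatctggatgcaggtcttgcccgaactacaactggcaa
Rps25: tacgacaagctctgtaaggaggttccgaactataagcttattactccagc
Rpl35: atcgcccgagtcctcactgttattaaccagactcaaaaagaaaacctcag
Rps6: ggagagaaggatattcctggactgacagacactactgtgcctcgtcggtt
A read from any of these last 6 stretches fits more than 1 gene equally well. How such reads were counted by the authors is not given in the sources used here.

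Rps27l, a paralog of Rps27 that is known as a target of p53, differs from Rps27 in 13 of these 50 bases, shown in capitals. The Rps27l stretch had no exact copy, and copies within 4 mismatches in 2 other genes.
Rps27l: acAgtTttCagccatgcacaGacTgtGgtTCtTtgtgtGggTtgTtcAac
Rps27: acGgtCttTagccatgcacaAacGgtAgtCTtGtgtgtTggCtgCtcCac
Rps27l was a member with a mean of 42.9 CPM (counts relative to the scaled total of a library) over 50 libraries. Its highest value, 488 CPM, lay in 1 library that stood apart from its group. Rps27, a gene under the minimum, had a mean of 0.484 CPM and at most 57 counts in a library.

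The start tract was looked for in the RefSeq gene starts of GRCm38.p6, as a C at the first transcribed base followed on the same strand by at least 4 letters that are C or T. It was found in 10 of 43 members with an annotated start (23.3%), in 4 of 20 matching genes under the minimum, in 0 of 69 mitochondrial ribosomal protein genes and in 3.01% of 27025 genes in the table. The longest tracts were those of Rpl15, Rpl35 and Rps10. They are printed with Rpl38, the member with the fewest counts, as 15 bases on either side of the start, with the tract in capitals. Rpl15 lies at chr14:18270972-18271001 on the minus strand, Rpl35 at chr2:39005117-39005146 on the minus strand, Rps10 at chr17:27635230-27635259 on the minus strand and Rpl38 at chr11:114668565-114668594 on the plus strand.
Rpl15: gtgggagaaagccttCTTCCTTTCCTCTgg
Rpl35: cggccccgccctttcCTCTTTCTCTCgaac
Rps10: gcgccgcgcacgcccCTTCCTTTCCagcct
Rpl38: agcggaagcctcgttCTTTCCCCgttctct
An annotated start that is off by a few bases hides the tract, so these are shares of annotated starts and not of transcripts.

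The level of a ribosomal protein gene in these counts went in part with how much of its sequence is its own. Over all 50-base windows of a gene's GENCODE M21 transcripts, a median of 71.1% of the windows of 55 members were found in no other gene, with a range from 4.91% to 100%, against 37.4% for 27 matching genes under the minimum and 99.7% for 21775 protein-coding genes. Fewer than 50% of the windows were unique in 11 of 55 members, in 17 of 27 genes under the minimum and in 8.75% of protein-coding genes. Per gene length, in the RW libraries at 15 hours, Rpl8, beside the catalytic centre of the large subunit, had the highest mean FPKM (reads scaled by gene length and library size) at 143, while Rps3 stood at 50.6 and Rps15 at 49.4; 17 of the 56 members were below 1 FPKM and the median was 2.55. The unique share was 93.7% for Rpl8, 97.2% for Rps3, 14.6% for Rpl5, 4.91% for Rpl35 and 15.4% for Rps6, the protein of the small subunit phosphorylated by S6 kinase, which had at most 10 counts in a library. Spearman's correlation between unique share and mean FPKM was 0.50 over 55 members and 0.58 over all 82 matching genes with windows. This is a description across genes that share the same libraries, with no test. Exons of 26 members also overlap another gene, and without a stated strand setting reads of the 2 cannot be told apart.

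**Figure D1:**
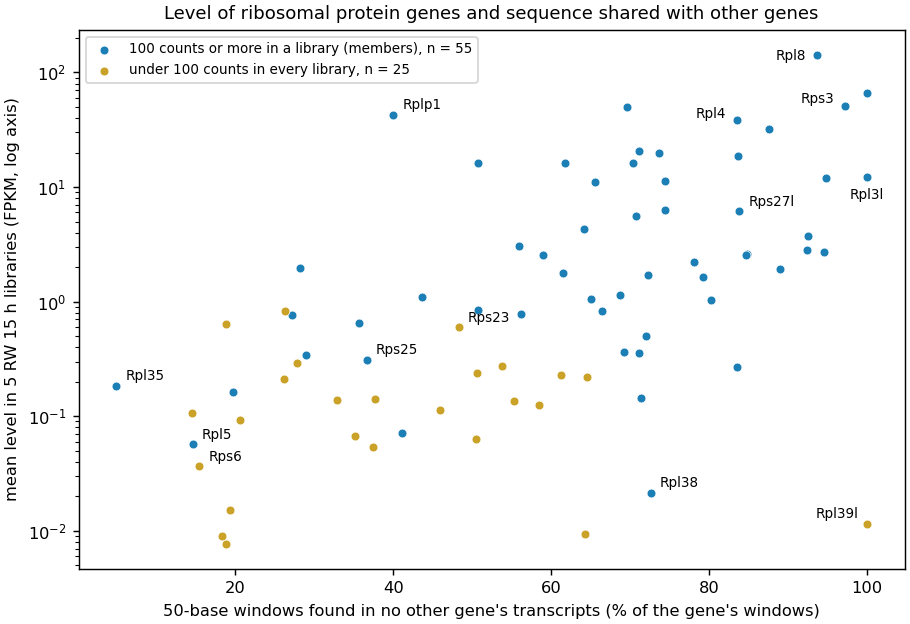
Mean FPKM in the 5 RW libraries at 15 hours (log axis) against the percentage of a gene's 50-base windows found in no other gene, 1 point per gene, for 55 members and 25 matching genes under the count minimum that were above 0. Rpl8 and Rps3 sit at the upper right, and Rpl5, Rpl35 and Rps6 at the lower left.

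A few members were counted far more often than the rest. The mean over the 50 libraries was 289.5 CPM for Rps3, which lines the messenger RNA entry channel, 279.9 CPM for Rpl8 and 217 CPM for Rpl4, a protein of the exit tunnel, against 0.245 CPM for Rpl38. Rps3 stood at 305, 271, 306, 269.8 and 265 CPM in RW at 15 hours, and at 218, 219.8, 192, 221 and 393 in RW of the first set at 7 days. Rpl8 stood at 314, 316, 315, 276 and 317 CPM in RW at 15 hours and at 277, 281, 251, 280.0 and 455 CPM at 7 days. In both genes 1 library of the 7-day control, replicate 5, lay well above the other four.

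All 56 members together made up well under 1% of the counts. The median share was 0.197% in RW, 0.213% in aJ1aJ2 and 0.224% in aN1aN2 at 15 hours, 0.158%, 0.194% and 0.173% in the same order at 5 days, and 0.160% in RW and 0.180% in aJ1aJ2 of the first set at 7 days. In the second set it was 0.288% in aJ1aJ2 and 0.270% in aN1aN2aN3. These shares move with everything else in a library: thyroglobulin (Tg) alone took 1.15% to 6.50% of the counts in the second set, against group medians from 21.9% to 38.3% elsewhere. Single libraries elsewhere were as low, down to 0.4495% in RW and 2.39% in aJ1aJ2 at 5 days. The 282 ribosomal protein pseudogenes named as such in the table took 0.0113% to 0.0293% of the counts of a library. For single genes they weighed more. Over all libraries the named pseudogenes of Rpl14 held 133017 counts against 71055 of the gene, and those of Rps13 held 10221 against 2761. Those of Rps26 held fewer than the gene, 6264 against 43242.

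**Figure D2:**
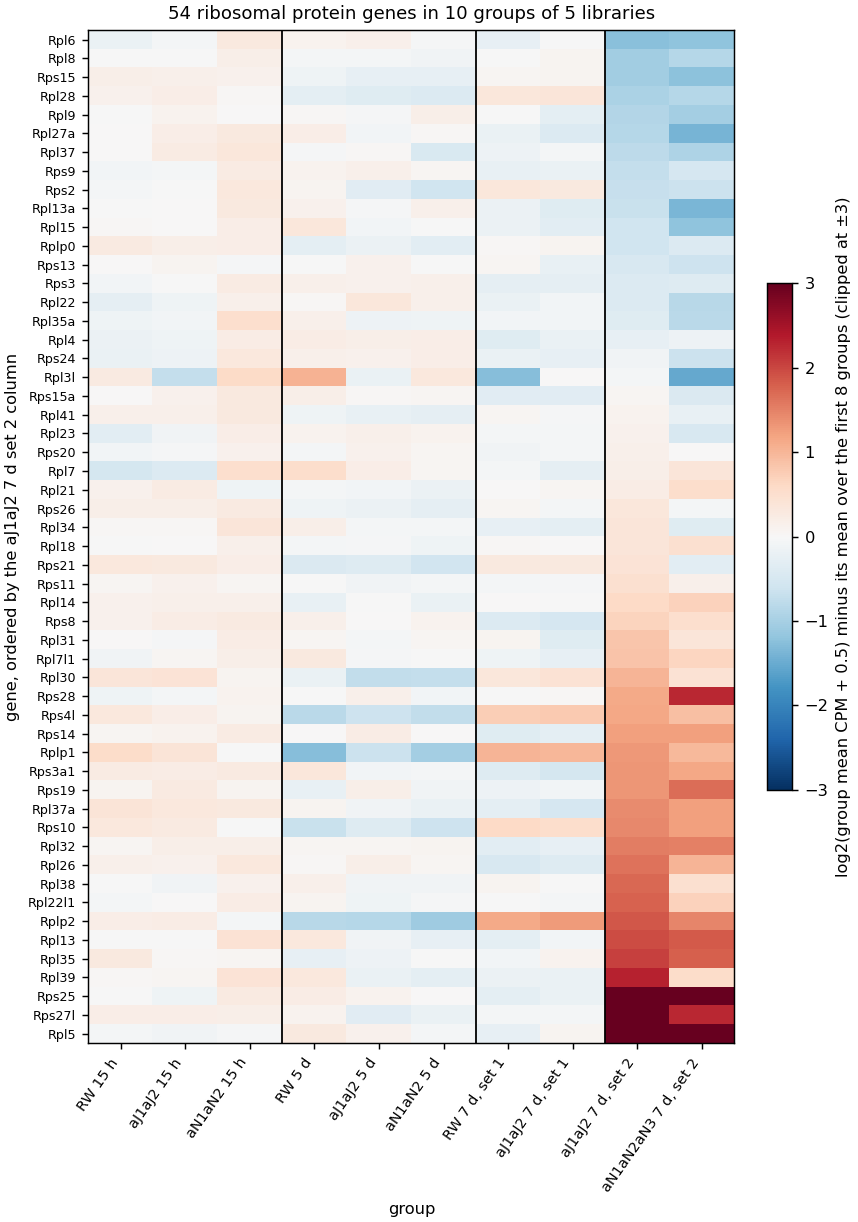
Log2 of the group mean CPM plus 0.5, minus its mean over the first 8 groups, for 54 members (rows) in 10 groups of 5 libraries (columns), clipped at 3 in either direction. The first 8 columns are pale for most genes, and the last 2 columns, the second set at 7 days, run from blue at Rpl6 to red at Rps27l and Rpl5.

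Library totals ran from 15271242 to 52835846 counts, with a median of 28329763, and no pair of replicates agreed within sampling noise. Some libraries stood apart. The members deviated upward on average from their group in RW replicate 5 of the first set at 7 days (by 0.49 on the log2 scale), aN1aN2 replicate 5 at 15 hours (0.40) and RW replicate 3 at 5 days (0.38). In the last of these the 10 skeletal muscle markers summed to 267240 CPM and the 12 thyroid markers to 8071, the lowest of all libraries, and aN1aN2 replicate 5 at 15 hours had 8066 CPM of 4 airway markers and 1512 CPM of 4 cartilage markers. The second set differed from all other groups in composition: the thyroid markers, all detected, summed to 13571 to 49199 CPM, against group medians from 254920 to 454130 elsewhere. Single libraries elsewhere fell in or below that range: at 5 days, aJ1aJ2 replicate 3 stood at 25454 CPM and RW replicate 3 at 8071. Apart from fits with the muscle marker sum as a covariate, the part of these differences in the members' levels was not tested.

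At 15 hours after antibodies to Jag1 and Jag2, 0 of 54 members tested passed the threshold of an adjusted p of 0.05, where 0.573% of all 18513 genes did (edgeR's quasi-likelihood test with Benjamini-Hochberg adjustment over all genes tested, used throughout). Members had a median log2 fold change of 0.04 against -0.03 for all genes, and 1 had an unadjusted p under 0.05. That was Rpl35, a protein at the rim of the exit tunnel, with 0.717 CPM in RW and 0.515 in aJ1aJ2 (log2 fold change -0.48, adjusted p = 0.732). Rpl23 and Rpl22 came next with 0.20 and 0.15. DESeq2 also called 0 members.

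At 15 hours, Rpl7 was higher in aN1aN2 than in RW. In all, 2 of 54 members tested passed (3.70%), both higher, where 1.68% of all genes passed. Rpl7, an RNA-binding protein of the large subunit, stood at 2.84, 2.37, 3.06, 3.13 and 2.19 CPM in RW and at 5.29, 4.88, 5.55, 6.75 and 7.77 CPM in aN1aN2. The groups do not overlap, and the mean rose from 2.72 to 6.05 CPM, 2.22-fold (log2 fold change 1.15, SE 0.17, adjusted p = 0.00307, n = 5 per group). Raw counts behind these values were 54 to 113 in RW and 147 to 298 in aN1aN2.

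Several members that did not pass in this comparison are given by their levels. Rpl35a had 1.25, 1.23, 1.30, 1.25 and 1.30 CPM in RW and 1.67, 1.98, 1.81, 2.70 and 2.90 in aN1aN2 (log2 fold change 0.80, adjusted p = 0.0554). It reached the count minimum only in this aN1aN2 group, with at most 119 counts there and 71 elsewhere, so its values here describe how it was chosen and support nothing. Rpl22, an RNA-binding protein of the large subunit, had 99.3, 96.9, 94.6, 91.7 and 92.8 CPM in RW and 134, 107, 113, 119.6 and 159.8 in aN1aN2 (0.41, adjusted p = 0.0728). Rpl23 (0.52), Rpl4 (0.40) and Rpl6 (0.55) had adjusted p-values above the threshold as well. The members' median was 0.16 against 0.01 for all genes, and 38 of 54 lay above 0. That lean rests on 1 library: without aN1aN2 replicate 5 the members' median was 0.05 and 1 member passed. The count was also 1 without any of RW replicates 1 to 4, in each of which Rpl7 kept its call. The numbers of all genes called in these fits are not given here, so these counts cannot be read as particular to the members. Of the libraries compared, aN1aN2 replicate 5 had the highest sums of airway and cartilage markers, 8066 and 1512 CPM. Other libraries of this comparison held them too: RW replicate 5 had 7032 and 170 CPM, and aN1aN2 replicate 2 had 2618 and 858 CPM. The muscle markers summed to 666 to 87029 CPM in RW and 2007 to 74051 in aN1aN2. A fit with the muscle marker sum as a covariate is given among the alternatives below. The part of the airway and cartilage tissue in the result was not tested. DESeq2 called 7 members, all higher, and 935 of the 34215 genes with a fold change. That total can include genes to which DESeq2 gave no adjusted p, so it is not a number of genes tested.

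The aN1aN2 libraries at 15 hours carry sample identifiers of another series than RW and aJ1aJ2 at 15 hours, and their FPKM values share the library factor of the 5-day groups. Treatment and series cannot be told apart in this comparison. Against aJ1aJ2, in the same fit and with the same confounding, Rpl7 was higher again: aJ1aJ2 stood at 3.38, 2.98, 2.43, 2.95 and 3.01 CPM, and the log2 fold change was 1.03 (SE 0.17, adjusted p = 0.0268). It was the only member of 54 past the threshold (1.85%, where 0.130% of all genes passed). Without aN1aN2 replicate 5 the count was 0, and it was also 0 without any of RW replicates 1 and 2, all 5 aJ1aJ2 replicates, and aN1aN2 replicates 1, 3 and 4. No number of all genes called stands beside these counts either. Among the matching genes under the count minimum, Rpl10a rose from 0.133 to 0.565 CPM (log2 fold change 2.03, adjusted p = 0.0283) and Rps18 from 0.329 to 0.926 CPM (1.50, adjusted p = 0.0492) in aN1aN2 against RW. Both rest on few reads, with at most 29 counts of Rpl10a and 42 of Rps18 in any library. Their unique shares were 37.4% and 20.6%. Over all libraries the named pseudogenes of Rpl10a held 19997 counts against 414 of its own, and those of Rps18 held 19 against 860.

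**Figure D3:**
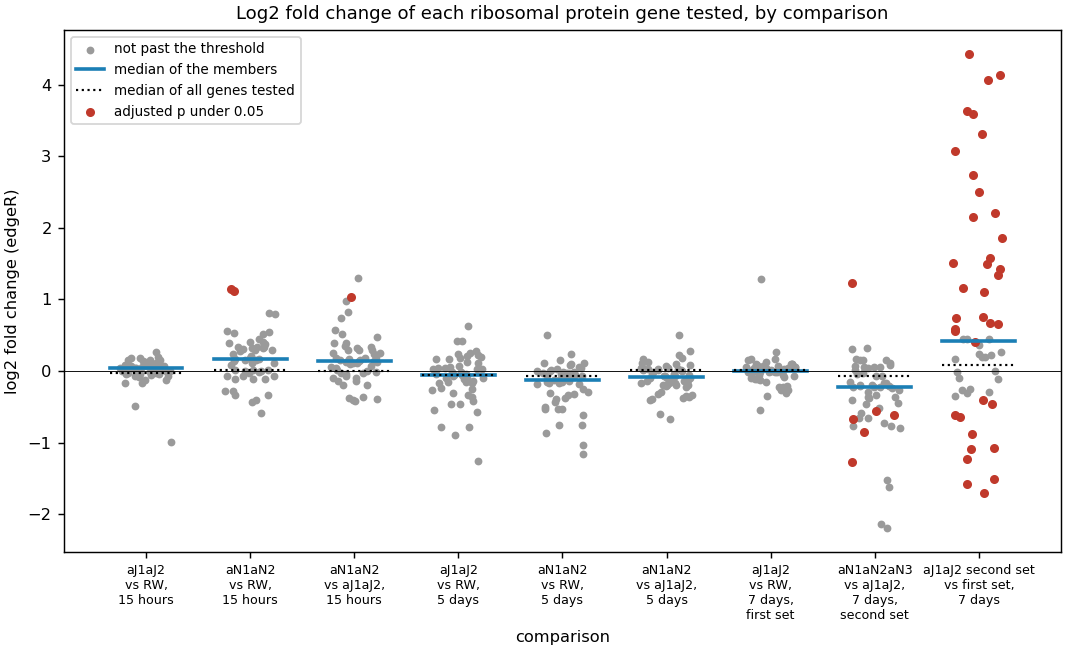
Log2 fold change of each member tested in 9 comparisons (1 point per gene, 51 to 56 genes each), with the members' median as a bar and the median of all genes as a dotted line. Red points have an adjusted p under 0.05: 0 to 2 points in each of the first 7 comparisons, 6 within the second set and 37 between the sets.

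At 5 days no member passed the threshold in any comparison. Against RW, aJ1aJ2 had 0 of 54 members past it, where 0.179% of 18434 genes passed, and a median of -0.06, equal to that of all genes. The smallest p-values belonged to Rpl39, a very short protein of the exit tunnel, with 1.01 CPM in RW and 0.543 in aJ1aJ2 (log2 fold change -0.89, adjusted p = 0.265), Rps3a1 (-0.57) and Rpl30 (-0.79). In all, 6 members had an unadjusted p under 0.05. For aN1aN2 against RW, 0 of 54 members and 0% of all genes passed, although 1848 genes and 7 members had an unadjusted p under 0.05. Rpl39 again had the smallest p (-1.04, adjusted p = 0.248), then Rpl13 (-1.17, adjusted p = 0.264) and Rpl30 (-0.76, adjusted p = 0.348). Rpl13 stood at 0.395, 0.998, 1.02, 0.430 and 0.562 CPM in RW and 0.194, 0.343, 0.334, 0.372 and 0.256 in aN1aN2, and these groups do not overlap. Behind these Rpl13 levels stood 11 to 20 counts per library in RW and 6 to 12 in aN1aN2.

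Between aN1aN2 and aJ1aJ2 at 5 days, 0 of 54 members and 0% of all genes passed, with 1 member at an unadjusted p under 0.05. That was Rpl37, a zinc-binding protein of the large subunit, with 1.86 CPM in aN1aN2 and 2.81 in aJ1aJ2 (log2 fold change -0.60). Rpl22 had -0.19. In the RW group at 5 days, replicate 3 was the library rich in muscle, and without it the members' median for aJ1aJ2 against RW was 0.08. With the muscle marker sum as a covariate, edgeR called 1 member in aJ1aJ2 (Rps27l, -0.48) and 3 in aN1aN2 (Rpl13, Rps2 and Rpl39), all lower than RW. The same fits called 1159 and 795 of 18434 genes, against 33 and 0 without the covariate. DESeq2 called 0 members in each of the comparisons at 5 days.

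At 7 days in the first set, aJ1aJ2 and RW again gave 0 of 51 members, 0% of 16954 genes, past the threshold, and 0 members at an unadjusted p under 0.05, where 1968 genes had one. DESeq2 called 0 members as well. Rpl31, at the rim of the exit tunnel, had the smallest p: 2.67, 2.36, 2.43, 3.06 and 5.35 CPM in RW and 2.09, 1.50, 2.23, 2.14 and 2.95 in aJ1aJ2 (log2 fold change -0.54, adjusted p = 0.456). The highest value belonged to RW replicate 5, and the groups overlap. Rpl9 (-0.31) and Rps13 (-0.35) came next. With too few counts, Rpl22l1 and Rpl38 were not tested at 15 hours, at 5 days or here, nor were Rpl5, Rpl13 and Rpl35 here. Without that library the members' median log2 fold change was 0.22 in place of 0.01, with 0 members past the threshold.

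**Figure D4:**
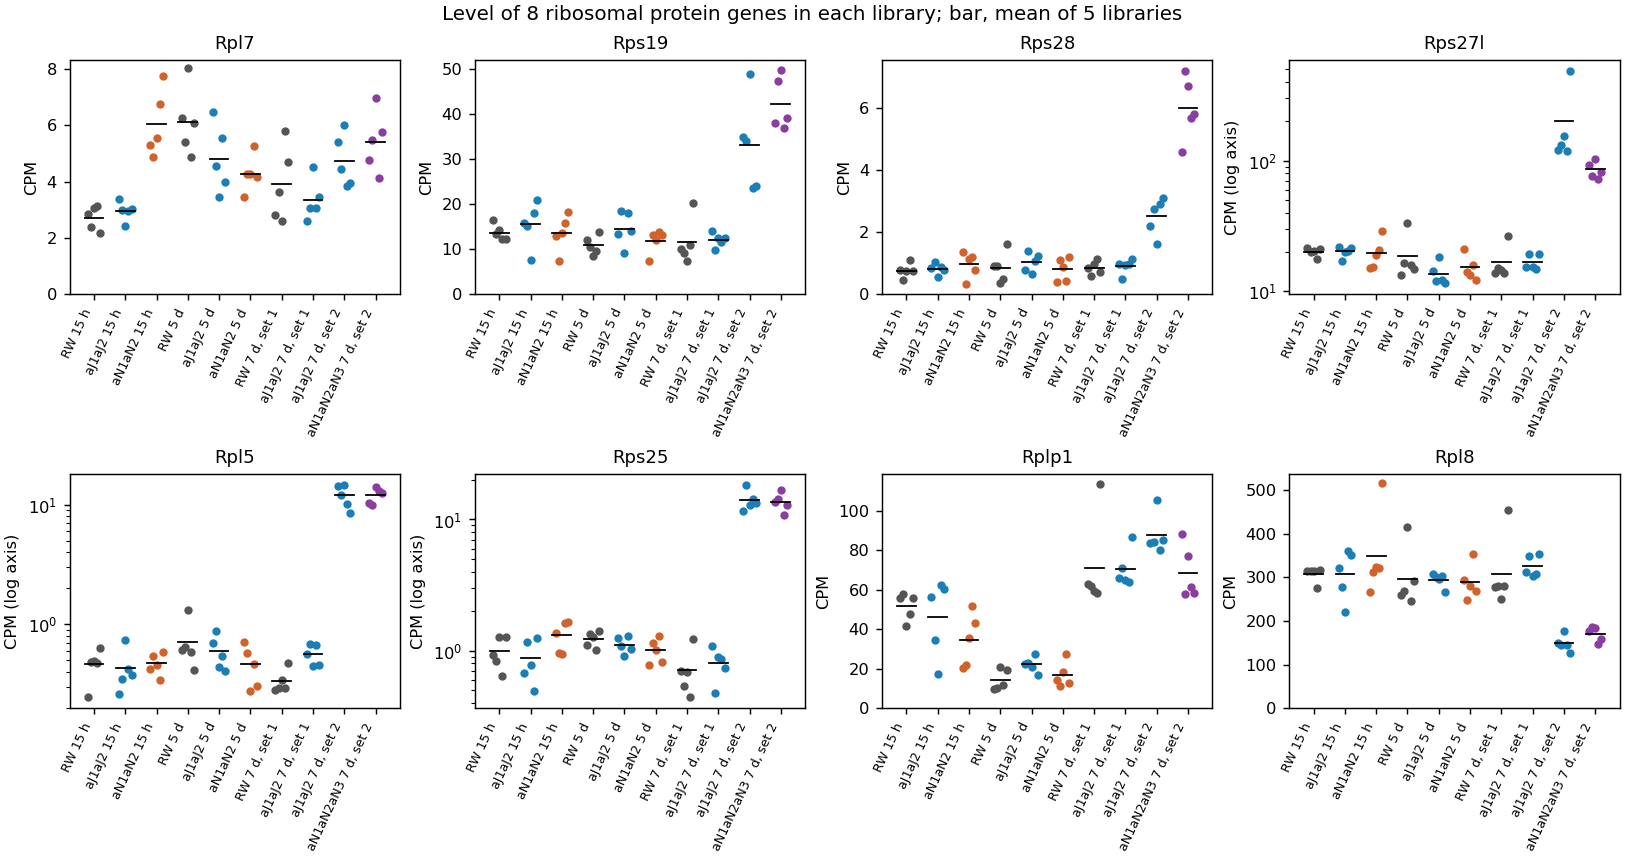
CPM of 8 members in each of 50 libraries, with the mean of 5 libraries as a bar; the axes of Rps27l, Rpl5 and Rps25 are logarithmic. Rpl7 is higher in aN1aN2 than in RW at 15 hours, and Rps28, Rps27l, Rpl5 and Rps25 are higher in both groups of the second set than in the other 8 groups.

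The aN1aN2 effect on 4 members differed between 15 hours and 5 days. These were 4 of 54 members tested (where 1.80% of 19337 genes passed), and all 4 moved down. For Rpl7 the change in the effect was -1.67 (SE 0.26, adjusted p = 0.000528), for Rpl35a -1.18 (adjusted p = 0.0350) and for Rpl13 -1.98 (adjusted p = 0.0445). Rpl35a is a member only through aN1aN2 at 15 hours, 1 of the groups in this test, so its value is a description. For Rpl7 the control libraries themselves differed: RW stood at 6.25, 5.39, 8.03, 4.89 and 6.10 CPM at 5 days, all above its values at 15 hours, and aN1aN2 at 3.44, 4.27, 4.26, 5.26 and 4.15 CPM. Mean Rpl7 in aN1aN2 at 15 hours, 6.05 CPM, was thus close to that of RW at 5 days, 6.13 CPM, and those 2 groups belong to the same series of identifiers. Whether the series or the time sets these levels cannot be told apart. The call of Rpl7 held in all 37 alternative fits. The count fell to 1 without any of RW replicates 1, 2, 4 and 5 or aN1aN2 replicates 4 and 5 at 15 hours, or aN1aN2 replicates 3 and 5 at 5 days, and to 2 without RW replicate 3 or aJ1aJ2 replicate 5 at 15 hours, or, at 5 days, RW replicates 2, 4 and 5, aJ1aJ2 replicate 4 or aN1aN2 replicates 1 and 2. The numbers of all genes called without these libraries are not given here, so the lower counts cannot be read as particular to the members. For aJ1aJ2 the same test of a change in the effect gave 0 of 54 members (0.636% of all genes), with 4 at an unadjusted p under 0.05 and a smallest adjusted p of 0.292, and DESeq2 also gave 0.

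Within the second set, aN1aN2aN3 against aJ1aJ2 gave 1 member higher and 5 lower of 56 (10.7%, below the 19.6% of all genes that passed). The higher one was Rps28, a small protein at the messenger RNA exit side of the small subunit. It stood at 2.18, 2.73, 1.61, 2.90 and 3.10 CPM in aJ1aJ2 and at 4.60, 7.20, 6.72, 5.67 and 5.81 CPM in aN1aN2aN3. The means were 2.51 and 6.00 CPM, and the log2 fold change was 1.23 (SE 0.23, adjusted p = 0.00502). In the other 8 groups no library exceeded 1.60 CPM. Rps28 reached the count minimum only through aN1aN2aN3, with 141 to 209 counts there, 41 to 67 in aJ1aJ2 of this set and at most 54 elsewhere. It was thus chosen by the group in which it is high, and its values are a description.

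The 5 lower members were Rps27l and 4 genes of the large subunit. Rps27l stood at 120.5, 131, 155, 118 and 488 CPM in aJ1aJ2 and 92.7, 76.8, 104, 72.2 and 82.5 in aN1aN2aN3 (log2 fold change -1.27, SE 0.38, adjusted p = 0.0382). Replicate 5 of aJ1aJ2 was by far the highest, and without it the log2 fold change was -0.65 (adjusted p = 0.0133) and the number of members past the threshold stayed 6. Rpl15 stood at 12.5, 12.8, 15.9, 11.8 and 9.76 CPM in aJ1aJ2 and at 9.49, 7.48, 7.65, 7.47 and 8.44 in aN1aN2aN3, with no overlap (-0.67, adjusted p = 0.0204). Rpl27a, with means of 7.12 and 4.73 CPM (-0.62, adjusted p = 0.0280), and Rpl31, with 5.73 and 3.99 (-0.55, adjusted p = 0.0412), did not overlap between the groups either. Rpl13a, known for a role outside the ribosome in silencing inflammatory transcripts, overlapped between them: 5.21, 5.61, 6.13, 4.27 and 3.00 CPM in aJ1aJ2 and 3.42, 3.67, 2.22, 2.65 and 1.78 in aN1aN2aN3 (-0.85, adjusted p = 0.0465).

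The number of calls depended on single libraries. Leaving out 1 library changed the count of 6 to 3 without aJ1aJ2 replicate 2, 1 without its replicate 3, 13 without its replicate 4, 1 without aN1aN2aN3 replicate 2, 3 or 4, and 2 without its replicate 5. Scaling by library totals gave 2 members, 1 in each direction. The numbers of all genes called in these fits are not given here, so these changes cannot be read as particular to the members. The members' median was -0.23, against -0.07 for all genes. Members listed by role that did not pass included Rpl38 (-2.19, adjusted p = 0.0539), Rpl39 (-2.13), Rplp1 (-0.38), Rplp2 (-0.46), Rps19 (0.32), Rplp0 (0.15), Rpl5 (-0.03) and Rps3 (0.01). Rpl38 and Rpl39 reached the minimum only in aJ1aJ2 of this set, and without its replicate 5 their log2 fold changes were -0.83 and -0.36. The tissue mix of the 2 groups also differed: the 7 adipose markers summed to 179 to 785 CPM in aN1aN2aN3 and to 1211 to 2642 in aJ1aJ2, the 5 C cell markers, 1 of them also in the parathyroid list, to 22165 to 36451 and 7155 to 18384, and the thyroid markers to 27927 to 49199 and 13571 to 25546. None of the genes of these 3 lists was at 0. Their part in the result was not tested.

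Among the 9 comparisons, the most members differed between the 2 sets of aJ1aJ2 at 7 days, which carry the same treatment label. Here 64.0% of all 19570 genes passed the threshold, and 37 of 56 members did (66.1%), a share near that background. Among them, 10 members, Rpl13, Rpl22l1, Rpl30, Rpl35, Rpl38, Rpl39, Rpl5, Rps25, Rps28 and Rps3a1, reached 100 counts only in libraries of the second set. For all but Rps28 these include aJ1aJ2 libraries, so their higher level there follows from how they were chosen. Rps28 reached the minimum only in aN1aN2aN3 and had 41 to 67 counts in aJ1aJ2 of this set. Of the other 46 members, 16 were higher in the second set, 11 were lower, and the median log2 difference was 0.21, against 0.09 over all genes. Among 15 tested genes under the minimum, 2 were higher (Rpl19 and Rps27a) and 4 lower (Rpl7a, Rps4x, Rpl10 and Rpl27). Higher and lower members thus stood side by side in both subunits.

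Of the 46, the higher group was led by Rps27l, from 15.3, 19.4, 15.4, 14.9 and 19.1 CPM in the first set to 120.5, 131, 155, 118 and 488 in the second (log2 difference 3.64, SE 0.35, adjusted p = 2.23e-08). Without replicate 5 of the second set it was 3.02, and the groups do not overlap either way. Rpl37a (2.21), Rpl26 (2.16) and Rpl32 (1.87, from a mean of 28.0 to 98.4 CPM) of the large subunit followed. In the small subunit Rps14, a protein of its platform, went from a mean of 55.9 to 161.6 CPM (1.58), and Rps19, the gene most often mutated in Diamond-Blackfan anaemia, stood at 14.0, 9.83, 12.5, 11.5 and 12.3 CPM in the first set and at 34.8, 33.9, 48.95, 23.6 and 23.9 in the second (1.51, adjusted p = 1.90e-05). Neither overlaps between the sets. In aN1aN2aN3 of the second set Rps19 stood at 37.9, 47.4, 49.8, 36.9 and 39.1 CPM.

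The lower group included Rpl8, which was among the most abundant members. It stood at 313, 349, 304, 308 and 355 CPM in the first set and at 149.8, 145, 178, 145 and 127 in the second (log2 difference -1.08, SE 0.16, adjusted p = 6.21e-06), and Rps15 went from a mean of 73.9 to 33.5 CPM (-1.09). Among the most negative differences were those of Rpl28, at 2.77, 3.14, 2.45, 2.64 and 2.44 CPM in the first set and 0.814, 0.973, 0.825, 0.422 and 0.901 in the second (-1.71, adjusted p = 1.21e-06), and Rpl6 (-1.50). Other lower members were Rps2 (-1.23), Rpl37 (-0.87), Rplp0 (-0.65), Rpl9 (-0.61), Rps9 (-0.47) and Rpl27a (-0.41). By contrast Rps3, at 245, 236, 248, 244 and 282 CPM in the first set and 255, 233, 315, 186 and 139 in the second, did not pass (-0.10, adjusted p = 0.687).

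The 10 members that the minimum admitted through the second set are given as levels. Rpl5, which carries the smallest ribosomal RNA of the large subunit with Rpl11 and can bind Mdm2, stood at 0.565, 0.682, 0.446, 0.677 and 0.453 CPM in the first set and at 14.3, 12.1, 14.6, 10.2 and 8.46 in the second, and at 10.3, 9.87, 14.1, 13.1 and 12.6 in aN1aN2aN3. Rps25, used in internal initiation, stood at 1.07, 0.478, 0.891, 0.855 and 0.736 CPM in the first set and 11.6, 18.4, 12.9, 14.3 and 13.3 in the second. Rpl35 stood at 0.565, 0.409, 0.724, 0.392 and 0.736 CPM in the first set and 3.52, 4.17, 4.48, 2.63 and 3.50 in the second. The fitted log2 differences were 4.43, 4.14 and 2.74, and those of Rpl13 and Rps3a1 were 3.07 and 2.50. In Rpl5, Rps25 and Rpl35 every library of the second set lay above every library of the first. In Rpl39, Rpl22l1 and Rpl38 most of the difference lay in replicate 5: Rpl39 stood at 1.30, 1.81, 2.12, 1.05 and 20.98 CPM, Rpl22l1 at 0.586, 0.324, 0.746, 0.474 and 6.76 CPM and Rpl38, known for translation of Hox transcripts, at 0.456, 0.695, 0.707, 0.316 and 5.01 CPM in the second set. Without that library the log2 difference fell from 3.31 to 1.55 for Rpl39, from 3.59 to 1.92 for Rpl22l1 and from 4.07 to 2.71 for Rpl38, and 36 members passed, 34 of them among the 37. Rpl34 (adjusted p = 0.332), Rps9 (0.0923) and Rpl27a (0.0722) no longer did. The number of all genes called in that fit is not given here, so the count of 36 cannot be read as particular to the members.

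Scaling moved these values together. With library totals in place of TMM factors the median of all genes shifted from 0.09 to 0.52 and that of all 56 members from 0.42 to 0.87, and Rpl27a changed direction to 0.04. The sets differ in sample identifiers and in composition, and also in classes of RNA. From the first aJ1aJ2 set to the second, the median sum of mitochondrial ribosomal RNA went from 0.226 to 110.86 CPM. Genes still to be experimentally checked went from 1047.7 to 4804.8 CPM and replication histones from 124.4 to 280.6. The named ribosomal protein pseudogenes went from 169.1 to 148.7. The part of these differences in the members' levels was not tested, and no source used here says what else distinguishes the sets. The mitochondrial ribosomal protein genes, a separate family, had 68 of 77 genes higher in the second set and 0 lower, with a median of 1.25. Of all genes, 64.0% passed in either direction.

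The stalk proteins were taken as a group by role. Rplp0, the base of the stalk, and its partners Rplp1 and Rplp2 did not pass in any of the first 7 comparisons: for example, Rplp1 had a log2 fold change of -0.59 (adjusted p = 0.436) in aN1aN2 against RW at 15 hours and 0.62 (adjusted p = 0.399) in aJ1aJ2 against RW at 5 days. Between the sets Rplp0 was lower (-0.65) and Rplp2 higher (0.68, adjusted p = 0.00590), while Rplp1 did not pass (0.36, adjusted p = 0.0871). Within the control groups Rplp1 followed the time point or series: RW stood at 55.7, 57.9, 41.4, 47.8 and 55.9 CPM at 15 hours, 9.71, 9.98, 20.6, 11.5 and 19.4 at 5 days and 62.8, 61.6, 59.2, 58.5 and 113 at 7 days. No library at 5 days reached the lowest value of either other time. Rplp2 went the same way, with means of 2.02, 0.734 and 4.34 CPM, as did Rps4l with 4.88, 1.96 and 6.70 and Rps10 with 2.16, 0.831 and 2.69. Time and series of identifiers coincide in these RW groups and cannot be told apart there. The aN1aN2 groups at 15 hours and 5 days share 1 series. Per library they held 579 to 2272 and 295 to 892 counts of Rplp1, 26 to 87 and 9 to 30 of Rplp2, 76 to 213 and 40 to 85 of Rps4l, and 30 to 97 and 16 to 44 of Rps10. These ranges overlap, and the difference between the 2 groups was not tested.

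Paralogs of ribosomal proteins were listed beside their parent genes. Rpl7l1, a nucleolar relative of Rpl7, did not pass in the first 7 comparisons (0.28, adjusted p = 0.375, in aN1aN2 against RW at 15 hours, where Rpl7 passed) and was higher in the second set (1.17, from 27.8 to 60.6 CPM). Rpl22 was not past the threshold between the sets (-0.30, adjusted p = 0.313) unless replicate 5 of the second set, at 178 CPM against 52.9 to 75.5 in the other four, was left out, when it was lower (-0.73, adjusted p = 0.000355). Rps4l, whose parent Rps4x lies under the minimum, had 0.45 (adjusted p = 0.0766). Rpl10l and Rpl39l stayed under the minimum, with at most 1 and 8 counts. The parents Rpl3, Rpl10, Rps4x and Rps27, and from the list by role Rps6, Rpl11, Rpl10a and Rps27a, did as well, and are not among the members.

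Rpl3l, the paralog of Rpl3 found in skeletal and heart muscle, was the most variable member, from 1.44 to 778 CPM. It stood at 18.8, 200.3, 27.2, 2.27 and 247 CPM in RW, 16.5, 18.4, 159, 41.8 and 13.8 in aJ1aJ2 and 8.27, 149.9, 210.2, 10.7 and 235 in aN1aN2 at 15 hours. High and low libraries occur in every group, and the standard error of its log2 fold change, between 1.16 and 1.47 in the comparisons at 15 hours and 5 days, was larger than the fold change in 5 of 6; Rpl3l passed in none of the 9 comparisons. Over 50 libraries Rpl3l rose and fell with the summed level of 10 skeletal muscle markers (Pearson's r 0.99 and Spearman's rho 0.99 on log2 values, permutation p = 1e-05 for both, the smallest that 100000 permutations can give). Without the 2 libraries farthest from the median muscle sum, r was 0.99, and within each of 4 series of identifiers, of 10, 10, 20 and 10 libraries, it was 0.99 as well. This was the only such relation computed. All 10 muscle markers were detected in every group, in tissue labelled thyroid.

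**Figure D5:**
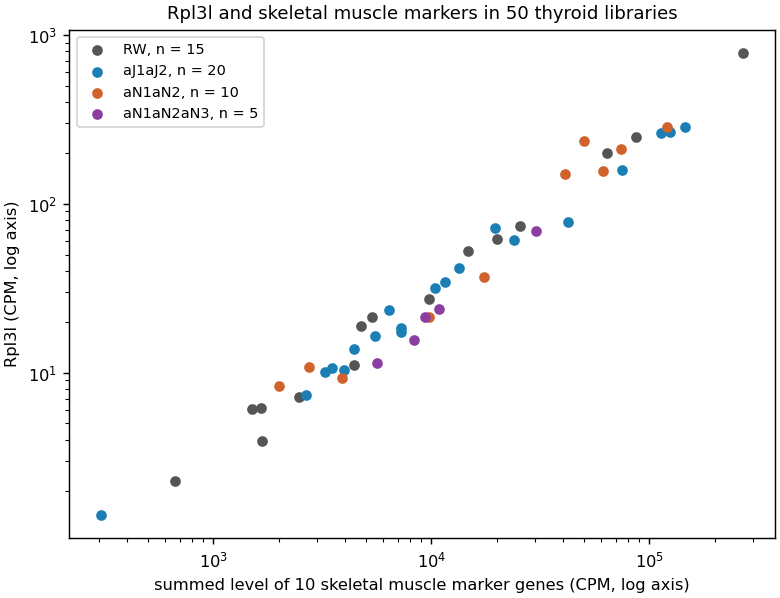
Rpl3l in CPM against the summed CPM of 10 skeletal muscle marker genes in 50 thyroid libraries, both on log axes, coloured by antibody. The points lie along 1 line from 1.44 to 778 CPM of Rpl3l, and RW, aJ1aJ2, aN1aN2 and aN1aN2aN3 libraries are spread along it.

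Most members rose and fell together from library to library. After each group's mean was subtracted, the correlation of a member with the mean of the other members over 50 libraries had a median of 0.63, and 36 of 56 were above 0.5; this is a description, since these libraries share their scaling. Rps26 (0.92), Rpl32 (0.90) and Rpl8 (0.87) followed the others most closely. Rps28 (-0.28), Rpl35 (-0.15) and Rpl9 (-0.11) were the furthest from them. Among 10102 other genes with a mean above 10 CPM, whose median correlation with the members' mean was 0.01, the closest were Gm4332 (0.88), Anapc11 (0.87), Ubl5 (0.87), 2410015M20Rik (0.84), Nop10 (0.84), Gm6563 (0.84), Mrfap1 (0.83), Rack1 (0.82), Mrpl52 (0.81) and Gm5805 (0.81). Rack1 is itself a protein of the small subunit, and Nop10 belongs to the particles that modify ribosomal RNA.

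Genes of the wider translation machinery were listed beside the members: 4 other ribosomal proteins, 13 translation factors with pyrimidine-tract transcripts, 30 ribosome biogenesis genes, 16 regulators and 78 mitochondrial ribosomal proteins. In the 7 comparisons at 15 hours, at 5 days and in the first set at 7 days, 0 of the 137 or 138 genes tested passed by edgeR's quasi-likelihood test, with 1 to 24 at an unadjusted p under 0.05 and the most in aN1aN2 against RW at 15 hours. Of all genes, 0% to 1.68% passed in these comparisons. Within the second set, where 19.6% of all genes passed in either direction, Pabpc1, the poly(A)-binding protein, was higher in aN1aN2aN3 (0.90, adjusted p = 0.00476). The mTOR inhibitor Ddit4 (2.73) and Myc (1.25) were higher as well. The cap-binding protein Eif4e (-0.71), Wdr12 (-1.06), Nop10 (-0.71), Rpl36al (-1.23) and 29 of 77 mitochondrial ribosomal protein genes were lower. Between the sets 64.0% of all genes passed in either direction, and the counts of each list stand against that share. Of 13 translation factors 8 were lower and 2 higher (median -1.26). The lower ones included Eef2, the translocase of elongation, from 1377 to 199.7 CPM (-2.75), and Eef1a1 (-1.48). Of 30 biogenesis genes 11 were higher and 9 lower (median 0.01), with Nop10 from 30.4 to 194 CPM (2.73). Of 16 regulators 10 were lower, Mtor among them (-2.15), and 2 higher. Rack1 was lower (-1.28, from 331 to 132 CPM).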

How the data were processed

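The authors deposited raw read counts and FPKM values per gene for 50 thyroid libraries (Trizol total RNA, single-end reads of 50 bases, per the labels' protocols). GSNAP and limma are named in the submitters' processing notes, without versions; for build, counter, annotation and strand setting the entry is: not given in the sources used here. Levels were computed from the counts as CPM with TMM factors over all libraries. Comparisons used edgeR 4.0.16 (R 4.3.3): filterByExpr with a minimum count of 10, robust quasi-likelihood fits, Benjamini-Hochberg adjustment over all genes tested and a threshold of 0.05. Groups of 1 time point or set shared a fit, the 2 aJ1aJ2 sets were compared in a fit of all 4 groups at 7 days, and the change of effect was an interaction term. The edgeR step was tested on simulated data. DESeq2 1.42.0, other scaling factors, no filter, covariates and left-out libraries were alternatives. A count of members from such a fit, without the number of all genes called, cannot be read as particular to the members. FPKM set levels between genes only within RW at 15 hours, because its library factor differs between series. The rule named, per comparison, up to 10 called members each way or, with none, the 3 with the smallest p, plus paralogs, parents and genes listed by role; other genes were named after their values were seen, and some members are not reported here by name. The members and lists were chosen with earlier results of these data known.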

Additional observations from a re-analysis of the deposited data

Results flagged for a closer look

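Within groups of 5 libraries, a library was set apart where its gap to the nearest other was a large part of the group's range (Dixon's 95% limit). For independent values with a normal spread, chance sets apart about 1 in 20 groups. Over the 56 members in 10 groups 95 of 560 tests (17.0%) did so, 85 of them with the library above the rest. The members rise and fall together, so these tests are not independent. No share over all genes is given here, so the 17.0% cannot be read as particular to the members. RW replicate 5 of the first set at 7 days accounted for 32 members, RW replicate 3 at 5 days for 19 and aJ1aJ2 replicate 5 of the second set for 9. The members' summed level was 3374 CPM in aN1aN2 replicate 5 at 15 hours, 3626 CPM in RW replicate 3 at 5 days and 2754 CPM in RW replicate 5 at 7 days, each far above the rest of its group. In those same libraries, in that order, Rpl15 stood at 28.8, 45.2 and 23.6 CPM. RW replicate 5 at 7 days also held Rpl27a at 16.7, Rpl31 at 5.35, Rpl7l1 at 40.5 and Rps27l at 26.5 CPM, and RW replicate 3 at 5 days held Rps27l at 33.5 and Rpl22l1 at 0.457 CPM.

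The second-set aJ1aJ2 replicate 5 stood apart in Rps27l at 488 CPM and in Rpl22l1 at 6.76 CPM. Rpl13a was apart in RW replicate 4 at 7.27 CPM and in aN1aN2 replicate 4 at 14.4 CPM, both at 5 days. Rpl27a was apart at 5.97 CPM in aN1aN2aN3 replicate 1, and Rps28 at 0.478 CPM in aJ1aJ2 replicate 2 of the first set. Rpl3l was apart in 6 libraries, each high in skeletal muscle markers: at 159 CPM in aJ1aJ2 replicate 3 at 15 hours, 778 CPM in RW replicate 3 and 261 CPM in aJ1aJ2 replicate 3 at 5 days, 266 CPM in aJ1aJ2 replicate 2 of the first set, 285 CPM in aJ1aJ2 replicate 4 of the second set and 69.4 CPM in aN1aN2aN3 replicate 1.

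Between 15 hours and 5 days the aN1aN2 effect differed, by the interaction term of edgeR's quasi-likelihood test, in Rpl7 (-1.67), Rpl35a (-1.18) and Rpl13 (-1.98, log2 scale). At 15 hours aN1aN2 and RW belong to different series of identifiers, so treatment and series cannot be told apart in this difference. Rpl7 kept its call in all 37 alternative fits, while Rpl13 lost it in 22 and Rpl35a in 14. Rpl35a reached the count minimum only through aN1aN2 at 15 hours, so its value is a description.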

How the results depend on the processing

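Across 1353 alternative values of called members, 1165 kept the call, 187 lost it and 1 changed direction: Rpl27a between the sets, 0.036 with library totals. Rpl7 at 15 hours in aN1aN2 against RW kept its call in all 23 alternatives (1.05 to 1.22), whereas Rpl7 against aJ1aJ2 lost it in 16 of 23. The number of members called in aN1aN2 against RW at 15 hours, 2, was 7 with DESeq2 (935 of the 34215 genes with a fold change). It was 4 with the muscle covariate (699 of 18513 genes, against 311 without it), and without 1 library it ran from 1 to 3. Against aJ1aJ2, 1 became 3 with DESeq2 (553 of the 34215 genes with a fold change). It became 0 with library totals, upper quartile factors, no filter or only the groups compared, and without 1 library it ran from 0 to 1. At 5 days the muscle covariate gave 1 call for aJ1aJ2 and 3 for aN1aN2 against RW, with 1159 and 795 of 18434 genes called, against 33 and 0. Within the second set, 6 became 2 with library totals, 11 with the muscle covariate (4956 of 18450 genes, against 3614) and 1 with no filter; without 1 library it ran from 1 to 13. For the change of the aN1aN2 effect, 4 became 1 with library totals or no filter, 2 with upper quartile factors and 7 with the muscle covariate; without 1 library it ran from 1 to 5. Between the sets the count without 1 library ran from 33 to 38. Where no number of all genes stands beside these counts, a change in them cannot be read as particular to the members. With library totals the members' median was 0.20 for aJ1aJ2 and 0.11 for aN1aN2 against RW at 5 days, -0.12 in the first set at 7 days and 0.87 between the sets. Without 1 library the median ran from -0.090 to 0.079 for aJ1aJ2 at 5 days and from -0.053 to 0.22 in the first set. The causes were not tested.

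Replicate numbers recur in every group. The deviations of same-numbered libraries correlated above 0.1 in 21 of 45 pairs (range -0.80 to 0.84), in 4 of 5 at 0.56 to 0.83 for RW and aN1aN2 at 15 hours and in 4 of 5 at 0.36 to 0.84 for RW and aJ1aJ2 at 5 days, and 8 were highest with their own number. Not every pair was above 0.1, so the numbers were not taken as pairing the libraries. With a replicate block the counts became 1 for aN1aN2 against RW and 0 against aJ1aJ2 at 15 hours, 1 within the second set and 1 for the change of the aN1aN2 effect. Members of a few counts per library, Rpl38, Rpl22l1 and Rpl13 among them, are limited by depth.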
